A study of Danio rerio with 32 samples.

Results

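Translation initiation factors are the proteins that bring the initiator tRNA, the small ribosomal subunit and the capped end of an mRNA together and find the start codon. eIF2 carries the initiator tRNA in its GTP-bound form and eIF2B recharges it with GTP, while eIF3 is the large scaffold on the small subunit. The eIF4 factors bind and unwind the cap end of the mRNA, and eIF5, eIF5B and eIF6 act on start codon recognition and on the joining of the ribosomal subunits. Myoblasts that leave the cell cycle and fuse into myotubes make large amounts of contractile protein, and eIF2B and the eIF4E binding proteins are known as points where stress and the mTOR pathway control translation. The set described here holds every probe set of a zebrafish array with a single annotated gene symbol that starts with eif and a digit from 1 to 6, without the *eif2ak* kinases. It came to 62 probe sets for 50 genes, of 15502 probe sets for 8793 genes, and all 62 were analysed. They covered eIF1A (5 probe sets), eIF2 with the other carriers of initiator tRNA (5), eIF2B (5), eIF3 (14), eIF4F with eIF4B and eIF4H (21), the eIF4E binding proteins (4), eIF5 and eIF5B (3), eIF5A (4) and eIF6 (1). A probe set annotated with both *eif4g1a* and *selenof* was left out by this rule.

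The cells were zebrafish mononuclear myogenic cells (zMNCs), the mononuclear cell layer freed from the dorsal muscle of adult fish, and each preparation was pooled from several fish in the study's methods. The study's text assigns the array cells to an α-actin–RFP transgenic line, in which an enhancer active in skeletal muscle drives red fluorescent protein. Cultures were expanded in growth medium with fetal bovine serum and fibroblast growth factor and then moved to differentiation medium with horse serum. The paper's text describes day 0 as the initial time of isolation, while a figure legend counts days 0–14 along myogenic differentiation. Whether the medium differed between day 0 and later days is therefore not settled. An effect of the medium cannot be told apart from one of day. The groups were defined by day and batch. Batch 1 (11 arrays used, 500000 cells plated) and batch 2 (20 arrays) each held 6 days of culture, from day 0 and day 1 through days 4, 7 and 10 to day 14, and no treated or mutant group was among them. Days 10–14 (9 arrays) were compared with days 0–1 (9 arrays), and day 4 (6 arrays) with the other 5 days (25 arrays). Day 0 replicate B of batch 1 was left out because it correlated with no other array above 0.152. A signal below is a quantile normalized intensity, and a change is a log2 difference from limma's fit, which held the hybridization run constant. A probe set was called at an adjusted p under 0.05 over all 15502 probe sets. The paper calls A and B biological duplicates for most of its time-points. The labels do not say whether the lettered replicates came from separate preparations, and if they did not, the spread behind each p may be technical only. The cultures are mixed, so that fewer cells of a type and less RNA per cell cannot be told apart, and an array measures transcripts, not proteins.

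Of the 31 arrays used, 7 were labelled poor, among them 3 of the 4 day 4 arrays of batch 2. The mean signal before scaling was 122 to 158 at days 10–14, against 21.4 to 49.5 at days 0–1, in batch 1, and 214 to 847 against 182 to 636 in batch 2. It was taken as the listed target intensity over the scale factor. That target was 500 in batch 1 and 1500 in batch 2, although the trimmed mean was 500 on every array. The batches can therefore not be compared in this signal. The GAPDH probe sets of the 3′ and 5′ ends had a signal ratio, a measure of RNA integrity, of 1.26 to 1.39 at days 10–14, against 1.74 to 2.43 at days 0–1, in batch 1, and of 2.52 to 12.0 against 3.34 to 9.72 in batch 2. At day 4 this ratio was 1.30 to 1.63 in batch 1 and 2.20 to 6.99 in batch 2. The muscle genes *desma*, *acta1a* and *myog* were higher at days 10–14 by log2 differences of 2.83 ± 0.46 (SE, adjusted p = 2.34e-05), 3.23 ± 0.49 (SE, adjusted p = 1.07e-05) and 1.80 ± 0.38 (SE, adjusted p = 0.000498), while the leukocyte gene *ptprc* had -3.80 ± 0.39 (SE, adjusted p = 3.87e-08). Of the muscle list, 6 of 15 probe sets rose and 1 fell, a dim probe set of *pax7a* (-0.78, adjusted p = 0.00723). Of the leukocyte list, 9 of 11 probe sets fell at days 10–14, and its summed signal was 1241 to 10459 at days 10–14, against 15818 to 46208 at days 0–1. Whether array quality or the share of leukocytes had a part in the values of the initiation factors was not tested.

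The initiation factors were among the brighter probe sets of the array, with a median of their mean signals of 1548 against 198 over all probe sets, and 58 of 62 lay above the median of all. Between days 10–14 and days 0–1, 19 of the 62 probe sets (13 genes) rose and 7 (7 genes) fell, while 21.8% of all probe sets rose and 17.1% fell. The median log2 difference was 0.14 over the members and 0.07 over all probe sets. At day 4 against the other days, 11 of 62 (11 genes) rose and 0 fell, while 2.10% of all probe sets rose and 2.36% fell. At an unadjusted p under 0.05, 28 were higher and 1 was lower at day 4. The day 4 difference was above 0 for 50 of 62 members (80.6%), against 50.6% of all probe sets, and its median was 0.33 over the members and 0.01 over all. Since the members were bright, they were also set beside the 3297 probe sets with a mean signal of at least 724, which holds 46 members. There the day 4 median of all was 0.08, 6.19% rose at day 4, and 9 of the 46 members did. At days 10–14 the order of the medians was turned in this bright set, with 0.05 over the 46 members and 0.19 over all 3297. With the scaling of the authors alone in place of quantile normalization, 51 members were above 0 at day 4 and 7 rose, while 1.79% of all probe sets rose. The day 4 median was then 0.22 over the members, 0.18 over all probe sets and 0.01 over the bright ones, so the distance of the members from all probe sets depended on the scaling. The highest of the 6 run-adjusted day levels was day 4 for 36 of 62 members (58.1%), against 15.8% of all probe sets and 21.1% of the bright ones. The lowest was day 0 for 26 members (41.9%), against 24.9% of all.

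**Figure D1:**
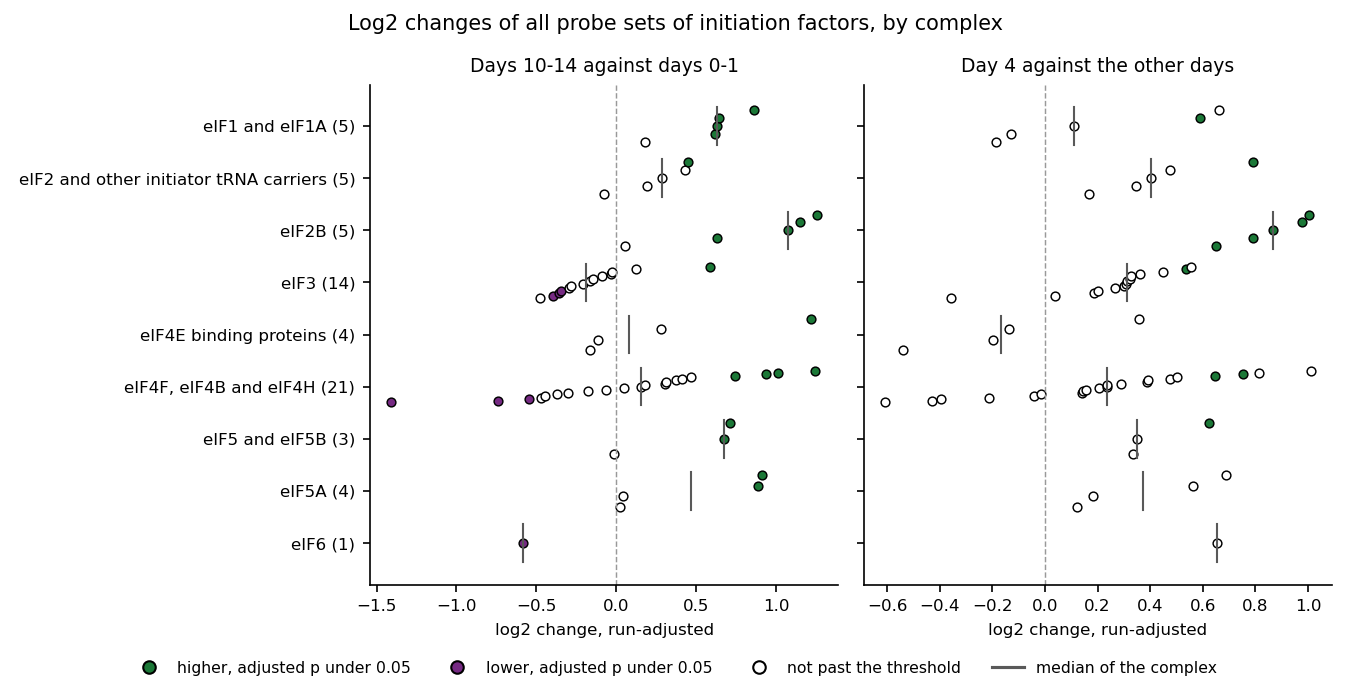
Log2 difference of each of the 62 initiation factor probe sets by complex, at days 10–14 against days 0–1 and at day 4 against the other days; green points rose, purple points fell, white points were not called, and the bar is the median of the complex. All 5 eIF2B probe sets lay above 0 at day 4 (median 0.87), while 12 of the 14 eIF3 probe sets lay below 0 at days 10–14 and 13 of 14 above 0 at day 4.

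eIF2B, the guanine nucleotide exchange factor that returns eIF2 to its active form, was the complex in which every subunit was called at day 4. All 5 subunits rose at day 4 against the other days (median log2 difference 0.87), all 5 rose between day 1 and day 4 (median 1.26), and 4 of 5 rose at days 10–14 against days 0–1 (median 1.08). Of all probe sets 2.10%, 8.72% and 21.8% rose in these comparisons. The highest day level was day 4 for all 5 subunits. With the authors' scaling alone, the medians were 0.83 at day 4 and 1.14 at days 10–14, and the counts were again 5 and 4 (at days 10–14, 18.2% of all probe sets rose under that scaling). With the arrays labelled good only, which leaves 1 day 4 array of batch 2, *eif2b1* and *eif2b2* were called at day 4. The others then had 0.79 (adjusted p = 0.116) for *eif2b3*, 0.65 (adjusted p = 0.302) for *eif2b4* and 1.18 (adjusted p = 0.0802) for *eif2b5*. With the other 5 days taken as a single level, *eif2b2* and *eif2b5* were called at day 4, against 0.96 (adjusted p = 0.0790) for *eif2b1*, 0.81 (adjusted p = 0.108) for *eif2b3* and 1.05 (adjusted p = 0.0952) for *eif2b4*. In batch 1 alone limma called 0 of the 5 at day 4 (all 5 were higher at an unadjusted p under 0.05), and in batch 2 alone it did not call *eif2b1* or *eif2b3*. The subunits *eif2b1*, *eif2b2* and *eif2b4* encode the regulatory α, β and δ chains that sense phosphorylated eIF2, and *eif2b3* and *eif2b5* the catalytic γ and ε chains.

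The α chain gene *eif2b1* had signals of 719 to 1503 (median 1141) at days 10–14, against 396 to 1545 (median 475) at days 0–1. The groups overlapped through 1 early array, day 1 replicate B of batch 2 at 1545, while the other 8 early arrays lay between 396 and 582. The log2 difference was 1.15 ± 0.20 (SE, adjusted p = 6.36e-05), with 1.41 (adjusted p = 0.00375) in batch 1 alone and 0.95 (adjusted p = 0.0155) in batch 2 alone. It had 1204 to 1817 (median 1689) at day 4, against 396 to 1613 (median 799) on the other days, a difference of 0.79 ± 0.19 (SE, adjusted p = 0.0214). The β chain gene *eif2b2* was called at day 4 and not at days 10–14. It held 2268 to 3802 (median 3274) at day 4, against 1012 to 3438 (median 1469) on the other days. Of the 25 other arrays, 2 were above the lowest day 4 array, day 1 replicate B (3438) and day 7 replicate D (2562) of batch 2. The day 4 difference was 1.00 ± 0.18 (SE, adjusted p = 0.00252). At days 10–14 its signals of 1169 to 1918 (median 1591) overlapped with 1116 to 3438 (median 1326) at days 0–1, and the difference was 0.05 ± 0.19 (SE, adjusted p = 0.849). It was also the only member called between day 4 and day 7, and fell by 1.01 ± 0.25 (SE, adjusted p = 0.0321) on the log2 scale, while 1.03% of all probe sets fell at that step. The δ chain gene *eif2b4* had 549 to 1259 (median 858) at days 10–14, against 165 to 770.0 (median 407) at days 0–1. These groups overlapped through 1 early array, again day 1 replicate B of batch 2 (770.0), and the difference was 1.26 ± 0.25 (SE, adjusted p = 0.000260). At day 4 it had 1001 to 1714 (median 1213), against 165 to 1491 (median 680.0) on the other days, a difference of 0.87 ± 0.24 (SE, adjusted p = 0.0386). In batch 2 all 4 of its day 4 arrays (1001, 1187, 1469 and 1714) were above the other 16 arrays of that batch, a pattern shared by 0.135% of all probe sets.

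The catalytic γ chain gene *eif2b3* held 572 to 1001 (median 791) at days 10–14, against 219.5 to 572 (median 350.5) at days 0–1, so that the highest early array equalled the lowest late one. Its log2 difference was 1.08 ± 0.19 (SE, adjusted p = 5.01e-05). It was called in batch 1 alone with 1.00 (adjusted p = 0.0436) and in batch 2 alone with 1.12 (adjusted p = 0.00118). At day 4 it had 633 to 1239 (median 990.2), against 219.5 to 1289.8 (median 657) on the other days, and the difference was 0.65 ± 0.18 (SE, adjusted p = 0.0363). The ε chain gene *eif2b5*, which carries the exchange activity, had 717 to 1462 (median 1148) at day 4, against 126 to 879 (median 490.4) on the other days. The lowest day 4 array lay within the range of the other days, and the difference was 0.98 ± 0.24 (SE, adjusted p = 0.0202). At days 10–14 its signals were 470.2 to 749 (median 555), against 126 to 879 (median 397) at days 0–1, all within the early range, and the difference was 0.63 ± 0.25 (SE, adjusted p = 0.0446). Relative to the mean of its day levels, *eif2b5* stood at -0.52, -0.50, 0.82, -0.05, -0.03 and 0.28 on the log2 scale from day 0 through day 14, and *eif2b1* at -1.06, -0.61, 0.66, 0.37, 0.08 and 0.56. Both were lowest at day 0 and highest at day 4, and at day 7 *eif2b1* was still above its mean while *eif2b5* was not. Leaving out single arrays, the late rise of *eif2b1*, *eif2b3* and *eif2b4* and the day 4 rise of *eif2b2* were called in each of the 31 fits, and the late rise of *eif2b5* in 15 of them (adjusted p 0.0506 to 0.126 where not). The day 4 call of *eif2b1* was lost without day 4 replicate A of batch 1, day 0 replicate B of batch 2, day 4 replicate A of batch 2 or day 4 replicate D of batch 2 (adjusted p 0.0647 to 0.0946). That of *eif2b5* was lost without day 4 replicate A of batch 1, day 0 replicate B of batch 2 or day 4 replicate A of batch 2 (adjusted p 0.0655 to 0.117), and those of *eif2b3* and *eif2b4* were made in 21 and 23 of the 31 fits.

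**Figure D2:**
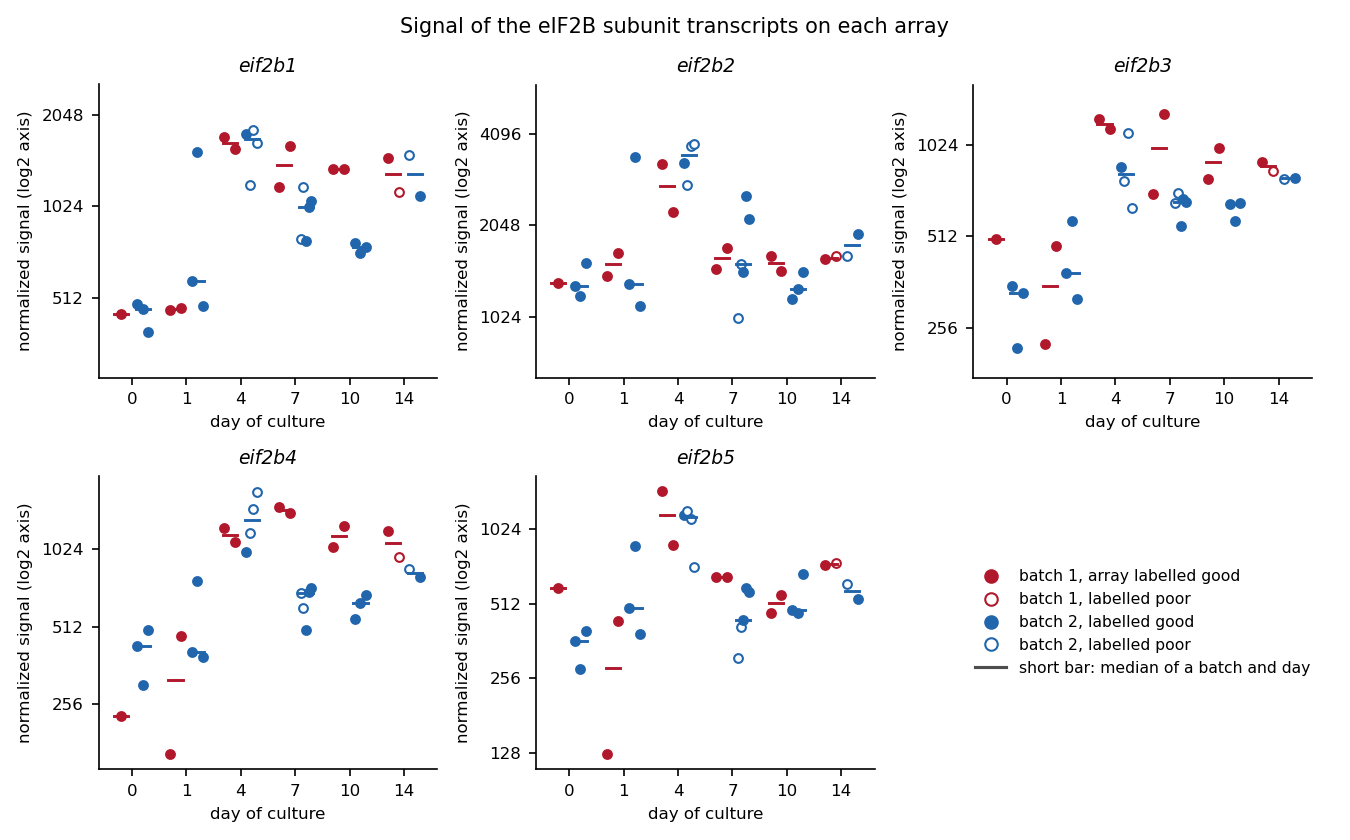
Normalized signal (log2 axis) of the 5 eIF2B subunit probe sets on each array by day in culture, batch 1 in red at the left and batch 2 in blue at the right of each day; open points are arrays labelled poor and the short bar is the median of a batch and day. The day 4 points of *eif2b2* (2268 to 3802) lay above all but 2 of the 25 other points, 1 of which is day 1 replicate B of batch 2 (3438).

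eIF2 itself and the other carriers of initiator tRNA were above 0 at day 4 in 5 of 5 probe sets (median log2 difference 0.40), of which 1 was called (20%, while 2.10% of all probe sets rose). The call was *eif2s2*, the β subunit of eIF2, with 3587 to 6441 (median 4492) at day 4, against 1671 to 3737 (median 2593) on the other days. Of the 25 other arrays, 2 were within the day 4 range, both of batch 2. Its difference was 0.79 ± 0.16 (SE, adjusted p = 0.00636), and it was called in each of the 31 fits without an array. It was 0.76 (adjusted p = 0.317) in batch 1 and 0.79 (adjusted p = 0.0715) in batch 2, so neither batch alone gave a call. At days 10–14 *eif2s2* was not called (0.19, adjusted p = 0.377). The genes of the α subunit, which the stress kinases phosphorylate, passed neither test. The signal of *eif2s1a* was 976 to 2046 (median 1341) at day 4, against 485 to 1982 (median 1041) on the other days, overlapping, with a difference of 0.40 ± 0.17 (SE, adjusted p = 0.162), and *eif2s1b* had 0.35 (adjusted p = 0.196). At days 10–14 the share of this group that rose was 20%, near the 21.8% of all probe sets. The single late call in this group was *eif2a*, an alternative initiator tRNA carrier that is not a subunit of eIF2, with 400.5 to 722 (median 622) at days 10–14, against 305 to 674 (median 359) at days 0–1. The groups overlapped, the difference was 0.45 ± 0.16 (SE, adjusted p = 0.0326), and the call was made in 24 of the 31 fits without an array (adjusted p 0.0538 to 0.0852 where lost). For *eif2d*, another such carrier, the late difference was 0.43 (adjusted p = 0.250).

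eIF1A keeps the small subunit open for scanning. Of its 5 probe sets (2 genes) 4 rose at days 10–14, while 21.8% of all probe sets rose. The median log2 difference was 0.63, against 0.07 over all. The brightest of the 3 *eif1axb* probe sets held 1722 to 3152 (median 2671) at days 10–14, against 1026 to 2675 (median 1644) at days 0–1, with the groups overlapping in batch 2 only. The late difference was 0.63 ± 0.16 (SE, adjusted p = 0.00324), and it also rose at day 4 by 0.59 ± 0.16 (SE, adjusted p = 0.0311). The day 4 call was lost without day 4 replicate A of batch 1, day 0 replicate B of batch 2, day 4 replicate A of batch 2 or day 4 replicate D of batch 2 (adjusted p 0.0626 to 0.165). The other *eif1axb* probe sets gave late differences of 0.64 ± 0.21 (SE, adjusted p = 0.0154) and 0.62 ± 0.20 (SE, adjusted p = 0.0137), and stood highest at day 7. Neither was called in batch 2 alone, with 0.06 (adjusted p = 0.866) for the first and 0.05 (adjusted p = 0.897) for the second. With batch in place of the hybridization run the first was not called either, at 0.50 (adjusted p = 0.0524). The median late difference of the complex was 1.25 in batch 1 and 0.05 in batch 2. The brightest *eif1axb* probe set did not share this split. It had 0.54 (adjusted p = 0.0796) in batch 1 alone and 0.71 (adjusted p = 0.0369) in batch 2 alone. The dimmer of the 2 *eif1axa* probe sets had 416, 646, 501 and 385 on the 4 late arrays, against 73.5, 75.4 and 158 on the 3 early arrays, in batch 1, without overlap. In batch 2 the same probe set had 338, 452, 298, 277 and 486 at days 10–14, against 291 to 878 (median 408) at days 0–1, with the groups overlapping. Its pooled late difference of 0.86 ± 0.29 (SE, adjusted p = 0.0215) came from 1.93 (adjusted p = 0.00258) in batch 1 and -0.15 (adjusted p = 0.725) in batch 2, where its sign was turned. It was lost without day 0 replicate A of batch 1, day 1 replicate A of batch 1 or day 14 replicate A of batch 1 (adjusted p 0.0517 to 0.0962). The late call of the dimmest *eif1axb* probe set was lost without day 0 replicate A of batch 1 (adjusted p = 0.0729). The brighter *eif1axa* probe set had 285 to 1054 (median 791) at days 10–14, against 286 to 2836 (median 658) at days 0–1, and was called at neither contrast (0.18 at days 10–14, adjusted p = 0.588).

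eIF3, the many-subunit scaffold that holds mRNA and factors on the small ribosomal subunit, had smaller differences than eIF2B, a contrast that was not tested. Of its 14 probe sets 3 fell and 1 rose at days 10–14, and 12 of 14 differences were below 0. The median was -0.19, against 0.07 over all probe sets and 0.19 over the bright ones (mean signal of at least 724). The share that fell was 21.4%, against 17.1% of all probe sets, and the share that rose was 7.14%, against 21.8%. With the authors' scaling alone, 4 fell and 1 rose (20.6% of all probe sets fell) and the median was -0.33, against -0.11 over all and 0.25 over the bright ones. The scaffold subunit gene *eif3c* had 2339.7 to 3825 (median 2898) at days 10–14, against 3203 to 5322 (median 3987) at days 0–1, with -0.34 ± 0.12 (SE, adjusted p = 0.0286). The gene *eif3g*, whose product binds RNA, had 3501 to 5525 (median 4218) at days 10–14, against 4397 to 6866 (median 5676) at days 0–1, with -0.40 ± 0.15 (SE, adjusted p = 0.0340). The gene *eif3m*, of the same scaffold core as *eif3c*, had 3993 to 6455 (median 4237) at days 10–14, against 4475 to 7467 (median 5969.6) at days 0–1, with -0.36 ± 0.14 (SE, adjusted p = 0.0438). For each of these 3 falls the groups overlapped over both batches, and the calls were made in 26, 23 and 11 of the 31 fits without an array. With the authors' scaling alone *eif3c* was not called (-0.36, adjusted p = 0.0692). The gene that rose was *eif3eb*, one of 2 copies of the eIF3e gene, with 344 to 495 (median 444) at days 10–14, against 90.3 to 476 (median 313) at days 0–1. These groups overlapped, and the difference was 0.59 ± 0.20 (SE, adjusted p = 0.0228), called in 28 of the 31 fits and lost without day 1 replicate A of batch 1, day 14 replicate A of batch 1 or day 0 replicate C of batch 2 (adjusted p up to 0.0595). Its copy *eif3ea* had -0.21 (adjusted p = 0.276). At day 4, 13 of 14 eIF3 differences were above 0 with a median of 0.31, and 10 of 14 had their highest day level there. The share called higher was 7.14%, against 2.10% of all probe sets. The 1 call was *eif3g*, with 4530.3 to 9072 (median 7038) at day 4, against 3337 to 6866 (median 4522) on the other days, which overlapped, and a difference of 0.54 ± 0.14 (SE, adjusted p = 0.0294). It was lost without day 4 replicate A of batch 1, day 0 replicate B of batch 2, day 4 replicate A of batch 2 or day 4 replicate D of batch 2 (adjusted p 0.0587 to 0.160). With the authors' scaling alone *eif3g* was not called at day 4 (0.33, adjusted p = 0.297). The eIF3 median was then 0.15, below the 0.18 of all probe sets and above the 0.01 of the bright ones. The remaining eIF3 members had late differences from -0.48 for *eif3ha* (adjusted p = 0.0604) to 0.12 for *eif3i* (adjusted p = 0.474).

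**Figure D3:**
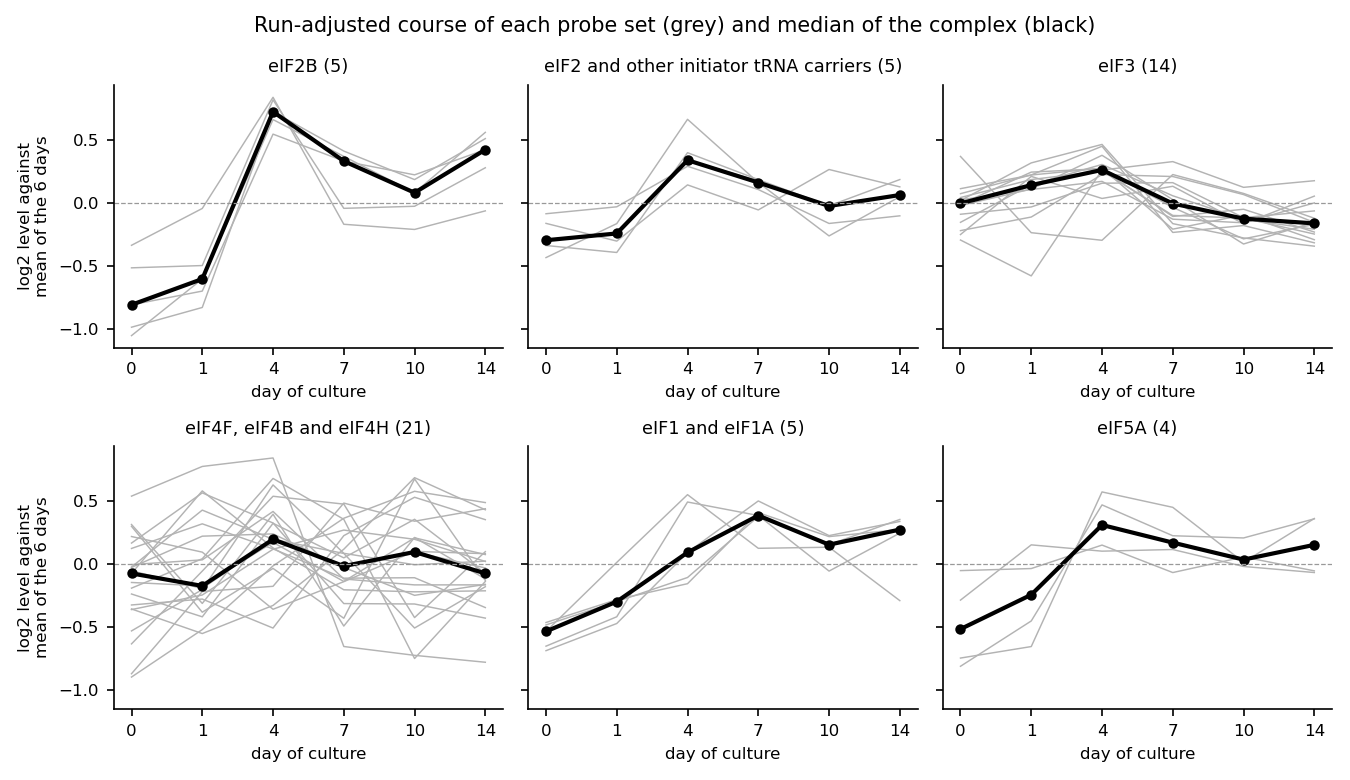
Run-adjusted log2 level of each probe set by day of culture relative to the mean of its 6 day levels, for 6 of the complexes, with each probe set in grey and the median in black. All 5 eIF2B probe sets and 10 of 14 eIF3 probe sets were highest at day 4, and 3 of 5 eIF1A probe sets at day 7.

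In the cap-binding group, 4 of 21 probe sets of eIF4F, eIF4B and eIF4H rose and 3 fell at days 10–14 (median log2 difference 0.16), and 2 rose at day 4 (median 0.24). The late shares were 19.0% and 14.3%, while 21.8% of all probe sets rose and 17.1% fell. The day 4 share that rose was 9.52%, against 2.10% of all. Of all members, *eif4e3* had the smallest p at days 10–14, and it encodes an eIF4E-like protein of a separate class. Its brighter probe set held 759 to 2454 (median 1829) at days 10–14, against 342 to 1784 (median 715) at days 0–1. In batch 2 its late arrays (2346, 2124, 2454, 2266 and 1829) were all above its early ones at 685 to 1784 (median 799.7), and in batch 1 the groups were separated too. The difference was 1.24 ± 0.18 (SE, adjusted p = 5.15e-06), with 1.13 (adjusted p = 0.0174) in batch 1 and 1.24 (adjusted p = 0.00194) in batch 2. The dimmer probe set had 48.0 to 214 (median 155) at days 10–14, against 29.8 to 65.8 (median 52.5) at days 0–1, with 1.01 ± 0.23 (SE, adjusted p = 0.00112), and both were called in each of the 31 fits. Their highest day level was day 10, and day 4 gave -0.02 for the first (adjusted p = 0.970). For *eif4e1c*, a paralog of eIF4E known from fish, the dimmer probe set had 276 to 696 (median 470.5) at days 10–14, against 489 to 1647 (median 765) at days 0–1. It fell by 0.74 ± 0.26 (SE, adjusted p = 0.0252) on the log2 scale, lost without day 14 replicate A of batch 1 or day 14 replicate B of batch 1 (adjusted p 0.0512 to 0.0548). It was -0.88 (adjusted p = 0.0263) in batch 1 alone, -0.88 (adjusted p = 0.0532) there without day 14 replicate B, and -0.47 (adjusted p = 0.432) in batch 2 alone. With batch in place of the hybridization run it was not called, at -0.67 (adjusted p = 0.0623). Its brighter probe set had 317 to 1098 (median 498) at days 10–14, against 474 to 1145 (median 778) at days 0–1, and was not called (-0.37, adjusted p = 0.329). The gene *eif4e1b*, known from oocytes, was a dim probe set with 7.23 to 90.7 (median 25.6) at days 10–14, against 8.34 to 1430.1 (median 55.4) at days 0–1, and fell by 1.41 ± 0.53 (SE, adjusted p = 0.0372). The highest early array was day 0 replicate A of batch 1, without which the difference was -0.62 (adjusted p = 0.228), and the call was made in 23 of the 31 fits. The canonical gene *eif4ea* had -0.45 (adjusted p = 0.0651).

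Among the eIF4G scaffolds, *eif4g2a* rose on both of its probe sets, and it encodes a relative of eIF4G that lacks the eIF4E binding part and serves cap-independent initiation. The brighter probe set had 3380.5 to 6005 (median 4752) at days 10–14, against 794 to 4634 (median 3318) at days 0–1. In each batch alone its late arrays were all above its early ones. The difference was 0.93 ± 0.19 (SE, adjusted p = 0.000320), with 1.45 (adjusted p = 0.0163) in batch 1 and 0.61 (adjusted p = 0.0241) in batch 2, and it was called in each of the 31 fits. The dimmer one had 632 to 1496 (median 1069) at days 10–14, against 245 to 1509 (median 879) at days 0–1, with 0.74 ± 0.25 (SE, adjusted p = 0.0187), lost without day 0 replicate A of batch 1 or day 1 replicate A of batch 1 (adjusted p 0.0541 to 0.0986). Its copy *eif4g2b* fell, with 682 to 1792 (median 1195) at days 10–14, against 1068 to 4079 (median 1457) at days 0–1, and a difference of -0.55 ± 0.18 (SE, adjusted p = 0.0200). That call was lost without day 0 replicate A of batch 1 or day 1 replicate B of batch 1 (adjusted p 0.0610 to 0.0629) and with the authors' scaling alone (-0.47, adjusted p = 0.0556). The difference between these copies was not tested, and their probe sets could share RNA of the paralog. The helicase genes *eif4a1a*, *eif4a1b*, *eif4a2* and *eif4a3* were called at neither contrast, and *eif4a3*, which also sits on exon junctions, had 0.50 at day 4 (adjusted p = 0.0548). Both cofactors of the helicase rose at day 4. The signal of *eif4h* was 1938 to 3943 (median 2428) at day 4, against 772 to 2957 (median 1346) on the other days, overlapping, and 0.75 ± 0.18 (SE, adjusted p = 0.0161), lost without day 4 replicate A of batch 1, day 0 replicate B of batch 2, day 4 replicate A of batch 2 or day 4 replicate D of batch 2 (adjusted p 0.0529 to 0.0708). That of *eif4bb* was 2815 to 4451 (median 3846) at day 4, against 1166 to 4048 (median 2102) on the other days, overlapping, and 0.65 ± 0.18 (SE, adjusted p = 0.0386). That call was made in 20 of the 31 fits and not with the authors' scaling alone (0.50, adjusted p = 0.0982). The 3 probe sets of *eif4g3a* and that of *eif4g3b* had late differences of 0.05 to 0.47 and were not called.

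**Figure D4:**
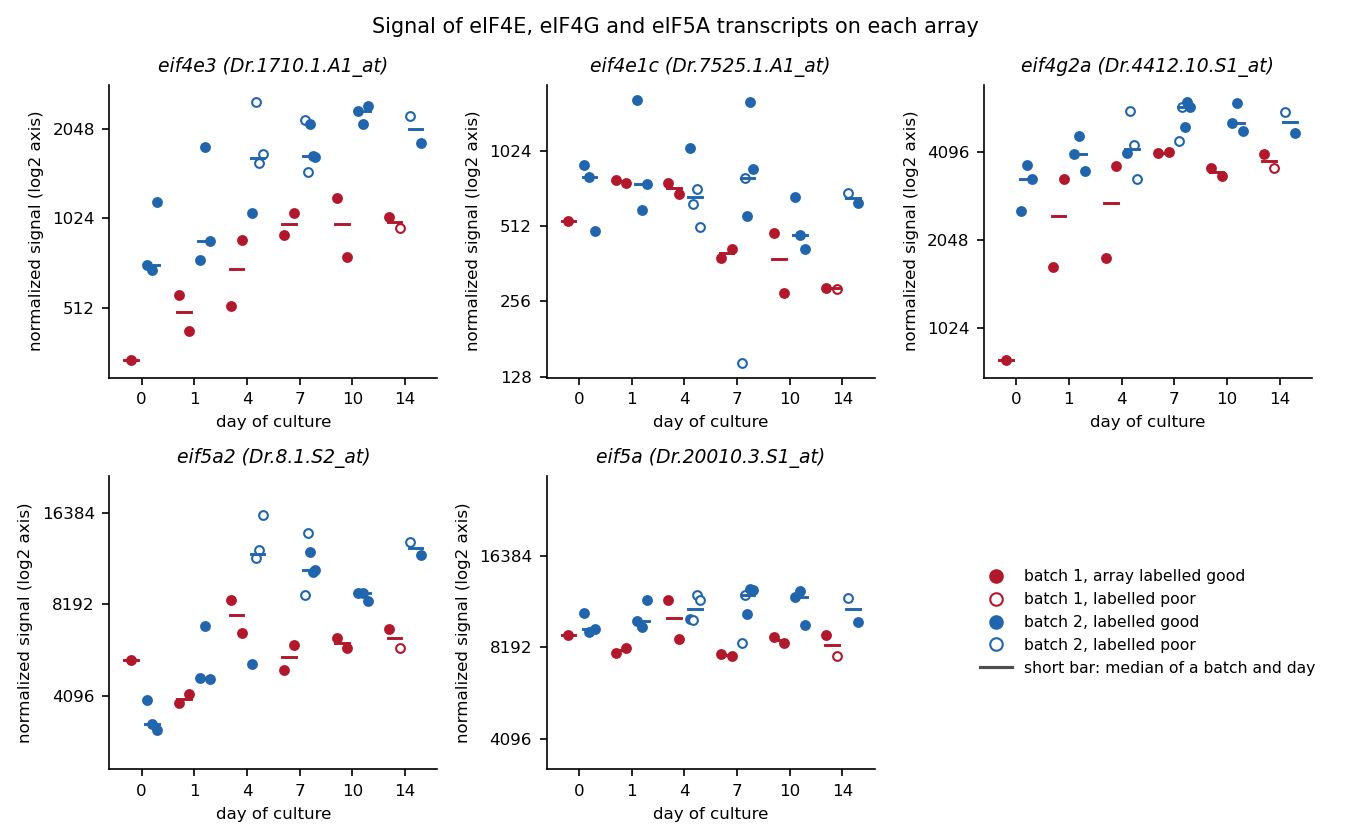
Normalized signal (log2 axis) of *eif4e3*, *eif4e1c*, *eif4g2a*, *eif5a2* and *eif5a* on each array by day in culture, batch 1 in red at the left and batch 2 in blue at the right of each day; open points are arrays labelled poor and the short bar is the median of a batch and day. At days 10–14 against days 0–1, *eif4e3*, *eif4g2a* and *eif5a2* rose and *eif4e1c* fell, while *eif5a* held 7648 to 12544 on the late arrays, against 7833 to 11748 on the early ones.

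The eIF4E binding proteins encoded by the *eif4ebp* genes hold eIF4E away from eIF4G until mTOR phosphorylates them. The group as counted here also holds *eif4enif1*, to which this does not apply. Of its 4 probe sets 1 rose at days 10–14 (25%, near the 21.8% of all probe sets), and limma called 0 at day 4 (0 at an unadjusted p under 0.05). The call was *eif4ebp3l*, with 980.2 to 3072 (median 2077) at days 10–14, against 408 to 1649 (median 957) at days 0–1. In batch 1 the late arrays were 2797, 2892, 3072 and 2433, against 464, 476 and 613 on the early ones, and the groups were far apart. In batch 2 they were 2077, 1254, 1008, 980.2 and 1207, against 408 to 1649 (median 965), and the groups overlapped. The pooled difference was 1.22 ± 0.39 (SE, adjusted p = 0.0148), with 2.40 (adjusted p = 0.00814) in batch 1 and 0.15 (adjusted p = 0.824) in batch 2. The pooled call was lost without day 0 replicate A of batch 1 (0.94, adjusted p = 0.0667). The signal of *eif4ebp1* was 574 to 2671 (median 1047) at days 10–14, against 933 to 2505 (median 1343) at days 0–1, with -0.12 (adjusted p = 0.737), and *eif4ebp2* had 0.28 (adjusted p = 0.207). The gene *eif4enif1*, whose product carries eIF4E into the nucleus, had 146 to 224 (median 179) at days 10–14, against 119 to 449 (median 146) at days 0–1, with -0.16 (adjusted p = 0.471).

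Among the factors of start codon recognition and subunit joining, *eif5b*, the GTPase that joins the large subunit, rose at days 10–14 on both probe sets. The brighter one had 1324 to 2378 (median 1889.5) at days 10–14, against 869 to 2618 (median 1343) at days 0–1, with 0.67 ± 0.19 (SE, adjusted p = 0.00514). The dimmer one had 761 to 2413 (median 1779) at days 10–14, against 844 to 1598 (median 1052) at days 0–1, with 0.71 ± 0.22 (SE, adjusted p = 0.0108). For both, the groups were separated in batch 1 and overlapped in batch 2, and the late calls were made in each of the 31 fits without an array. In batch 2 alone neither was called, with 0.53 (adjusted p = 0.113) for the brighter and 0.48 (adjusted p = 0.275) for the dimmer one. With batch in place of the hybridization run the brighter one was not called, at 0.50 (adjusted p = 0.0516). The brighter one also rose at day 4, with 1866 to 4584 (median 2900.2) at day 4, against 869 to 2677 (median 1571) on the other days, overlapping, and 0.62 ± 0.18 (SE, adjusted p = 0.0432). That call was made in 15 of the 31 fits and not with the authors' scaling alone (0.50, adjusted p = 0.132), although in batch 2 all 4 day 4 arrays were above the other 16. The GTPase activator gene *eif5* had 1685 to 3177 (median 2529) at days 10–14, against 1979.6 to 3649.9 (median 2598) at days 0–1, and was called at neither contrast (-0.01 at days 10–14, adjusted p = 0.969).

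eIF5A, the hypusine-carrying factor now known mainly for helping elongating ribosomes past difficult stretches, is encoded here by *eif5a* and *eif5a2*. The brighter *eif5a2* probe set had 5857 to 13069.7 (median 8373) at days 10–14, against 3165 to 6943 (median 4138) at days 0–1. In each batch alone its late arrays were all above its early ones, and the difference was 0.91 ± 0.20 (SE, adjusted p = 0.000697), with 0.49 (adjusted p = 0.149) in batch 1 and 1.08 (adjusted p = 0.00230) in batch 2. The dimmer one had 562 to 2509 (median 940.2) at days 10–14, against 192 to 2523 (median 443) at days 0–1, with 0.89 ± 0.27 (SE, adjusted p = 0.0117), lost without day 0 replicate C of batch 2 (0.63, adjusted p = 0.0707). For *eif5a* the brighter probe set had 7648 to 12544 (median 9702) at days 10–14, against 7833 to 11748 (median 9427) at days 0–1, with the groups overlapping at 0.04 ± 0.13 (SE, adjusted p = 0.815), and the dimmer one had 0.02 (adjusted p = 0.945). The difference between the genes was not tested. For *eif6*, whose product keeps large subunits from joining too early, signals were 815 to 1969.8 (median 1480.0) at days 10–14, against 1293 to 3303 (median 2369) at days 0–1, and fell by 0.58 ± 0.23 (SE, adjusted p = 0.0465) on the log2 scale. This call was made in 12 of the 31 fits and not with the authors' scaling alone (-0.48, adjusted p = 0.131), and day 4 gave 0.66 (adjusted p = 0.0834).

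By step of the course, most calls were made between day 1 and day 4. At that step 13 of 62 probe sets (12 genes) rose and 0 fell (19 and 1 at an unadjusted p under 0.05), while 8.72% of all probe sets rose and 7.99% fell. The median log2 difference was 0.33 over the members and 0.06 over all. Besides the 5 eIF2B subunits these were *eif2a* (0.79), *eif2s2* (0.83), *eif3eb* (0.84), *eif4h* (0.83), *eif5b* (0.81), *eif1axb* (0.91) and both probe sets of *eif5a2* (1.23 and 0.92), with adjusted p of 0.00267 to 0.0182. The largest was *eif2b4* with 1.55 ± 0.30 (SE, adjusted p = 0.00114), followed by *eif2b5* with 1.31 ± 0.30 (SE, adjusted p = 0.00392) and *eif2b1* with 1.26 ± 0.24 (SE, adjusted p = 0.00112). Between day 4 and day 7 *eif2b2* was the 1 call. The count went to 0 without day 4 replicate A or day 7 replicate A of either batch or day 7 replicate B of batch 1, to 2 without day 0 replicate A of batch 1 or day 4 replicate B of batch 2, and to 3 without day 1 replicate A or day 4 replicate B of batch 1. Between day 0 and day 1, 0 members were called (0% of all probe sets rose and 0.00645% fell) and 3 had an unadjusted p under 0.05. Between days 7 and 10, 0 were called (0.00645% of all rose) and 5 had an unadjusted p under 0.05, and between days 10 and 14, 0 were called (0% of all) and 0 had one. The moderated F test of any difference between days called 22 of 62 (19 genes, 35.5%), near the 35.2% of all probe sets.

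Each contrast was also fitted in each batch alone. At days 10–14, 14 probe sets rose and 3 fell in batch 1 (16.2% and 13.5% of all probe sets), and 9 rose and 3 fell in batch 2 (15.4% and 13.8%), with member medians of 0.14 and 0.06. At day 4, limma called 0 in batch 1 (0.0129% of all rose, and 16 members were higher at an unadjusted p under 0.05), which had 2 day 4 arrays. In batch 2, 5 rose at day 4 (0.755%). The member medians at day 4 were 0.32 in batch 1 and 0.31 in batch 2, and 49 and 53 of 62 differences were above 0. Over both batches 0 of 62 members had all days 10–14 arrays above or below all days 0–1 arrays, a pattern that 3.84% and 2.59% of all probe sets showed. Likewise 0 had all day 4 arrays above all other arrays (0.00645%). In batch 1, 17 members had all late arrays above all early ones and 7 below (20.5% and 14.7% of all probe sets), and in batch 2, 4 above and 2 below (10.5% and 8.61%). The 4 in batch 2 were *eif4e2rs1*, *eif4e3*, *eif4g2a* and *eif5a2*, and the 2 below were *eif3ba* and *eif4a2*. In batch 1, 11 members had both day 4 arrays above its other 9 arrays (2.67% of all probe sets). In batch 2 the 2 members with all day 4 arrays above the rest were *eif2b4* and *eif5b* (0.135%).

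The late change differed between the batches for 6 of 62 members (9.68%), against 5.94% of all probe sets, in 1 fit over both batches, and in all 6 it was higher in batch 1. For *eif4a2*, the helicase paralog, the batches moved in opposite directions. Its late arrays were 2444, 2352, 2364 and 2035, against 1364, 1163 and 1152 on the early ones, in batch 1, and 1417, 1417, 1443, 1113 and 1095 against 2147 to 2760.4 (median 2583) in batch 2, with no overlap in either. The late difference was 0.87 (adjusted p = 0.0200) in batch 1 and -0.81 (adjusted p = 0.0145) in batch 2, and batch 1 minus batch 2 was 1.68 ± 0.30 (SE, adjusted p = 0.00235). For *eif3hb* the late arrays were 514, 522, 419.6 and 374, against 317, 168 and 328 on the early ones, in batch 1, and 269, 243, 252, 173 and 174 against 257 to 509 (median 391) in batch 2. The groups were apart in batch 1 and overlapped in batch 2. It gave 0.63 (adjusted p = 0.102) in batch 1 and -0.76 (adjusted p = 0.0374) in batch 2, and the difference between them was 1.39 ± 0.39 (SE, adjusted p = 0.0332). For *eif4ebp3l* the batch difference was 2.17 ± 0.63 (SE, adjusted p = 0.0409), and for *eif1axa* 2.11 ± 0.39 (SE, adjusted p = 0.00281), neither of which was called in batch 2. For the dimmest *eif1axb* probe set it was 1.19 ± 0.32 (SE, adjusted p = 0.0294). The gene *eif2b4* rose in batch 1 with 1.89 (adjusted p = 0.00445) and gave 0.61 (adjusted p = 0.0722) in batch 2, a difference of 1.42 ± 0.38 (SE, adjusted p = 0.0264). This count was 2 without day 10 replicate B or day 14 replicate A of batch 1 or day 0 replicate C of batch 2, and 3 without day 10 replicate A of batch 2. The batches differed in hybridization runs and in GAPDH ratio as given above, and the part of these in the 6 differences was not tested. Whether they differed in signal before scaling cannot be told, because the listed target intensities differ.

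**Figure D5:**
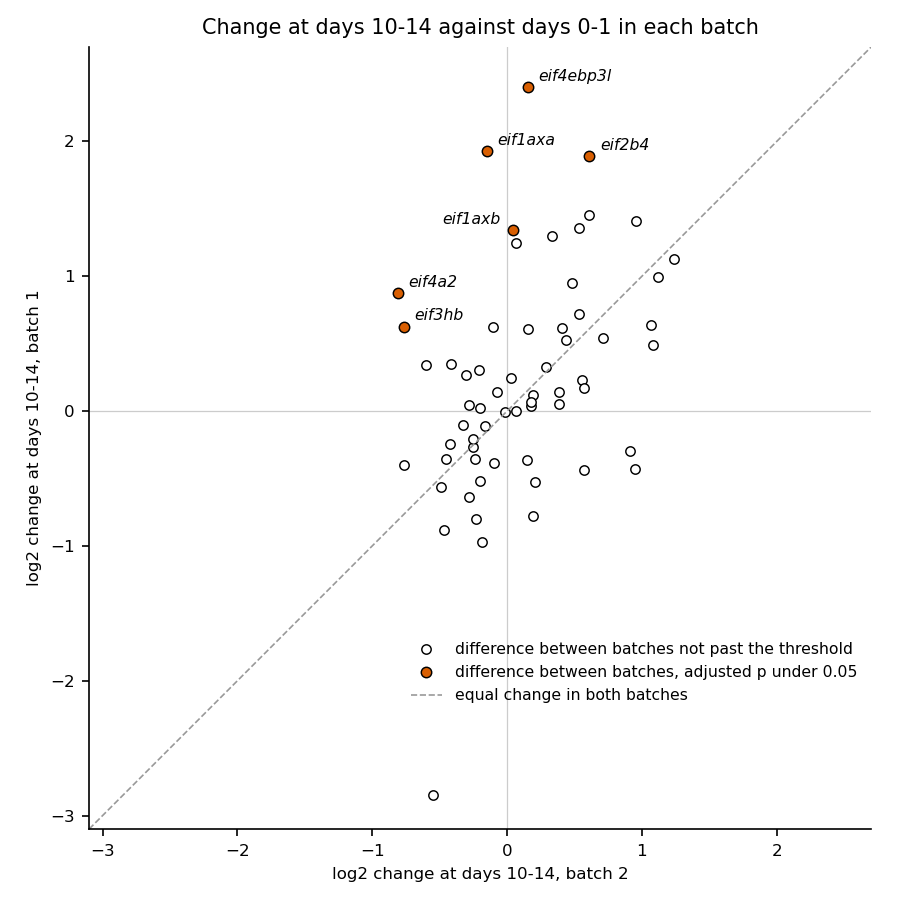
Log2 difference at days 10–14 against days 0–1 of the 62 probe sets in batch 1 (vertical axis) against batch 2 (horizontal axis), each from a fit in that batch alone; the 6 probe sets whose batch difference had an adjusted p under 0.05 are orange and named. All 6 lie above the diagonal, and *eif4a2* and *eif3hb* are above 0 in batch 1 and below 0 in batch 2.

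The day 4 count rested on single arrays. It was 2 without day 4 replicate A of batch 1 or day 0 replicate B of batch 2, and 3 without day 4 replicate A or D of batch 2. It was 7 without day 14 replicate B of batch 1 or day 10 replicate A of batch 2, and 19 without day 0 replicate A of batch 1 or day 1 replicate B of batch 2. With the arrays labelled good only it was 3 (*eif2b1*, *eif2b2* and *eif2s2*), and with the other 5 days as a single level 4 (*eif2b2*, *eif2b5*, *eif2s2* and *eif4h*). With the good arrays the member median was 0.33. Day 1 replicate B of batch 2 had the highest signal of the 9 early arrays in 26 of 62 members. Its median correlation over all probe sets was 0.900 with the day 4 arrays of its batch and 0.900 with the other day 1 arrays, while the other 5 early arrays of batch 2 had 0.815 to 0.848 with the day 4 arrays. Day 4 replicate A of batch 2, the array of that group labelled good, had 0.924 with day 1, 0.895 with day 0 and 0.872 with the other day 4 arrays. Day 4 replicate B of batch 1 was most like day 10, and replicates C and D of batch 2 were most like days 7 and 14. Day 0 replicate A of batch 1 had 0.858 with day 4 and 0.826 with day 1. Of the 26 late calls 20 were made with batch in place of the hybridization run, without *eif1axa*, *eif2b5*, *eif4e1b*, *eif4e1c* and a probe set each of *eif1axb* and *eif5b*. With the good arrays 21 were made, without *eif2a*, *eif2b5*, *eif3g*, *eif3m* and *eif6*. Of the 26, 11 were made in each of the 31 fits without an array, and of the 11 day 4 calls 2, *eif2b2* and *eif2s2*, were. The 10 genes with several probe sets had the same sign on all of them at days 10–14, and 8 of 10 had at day 4, the exceptions being *eif1axb* and *eif4g3a*.

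Genes around the initiation factors were read from lists of the pathway. For comparison, 21.8% of all probe sets rose and 17.1% fell at days 10–14, and 2.10% rose and 2.36% fell at day 4. Whether a list differed from these shares was not tested. Of the integrated stress response, which acts on eIF2 and eIF2B, 2 of 13 probe sets rose at days 10–14 and 5 fell, and at day 4 limma called 0 (1 higher and 3 lower at an unadjusted p under 0.05). All 4 probe sets of *ppp1r15a*, the phosphatase subunit that removes the phosphate from eIF2α, fell, with log2 differences of -2.61 to -2.30. The other fall was *atf4b*, a transcription factor of this response, with -0.69 ± 0.16 (SE, adjusted p = 0.000949). Both that rose were of *asns*, asparagine synthetase, a known target of that factor, with 1.28 ± 0.30 (SE, adjusted p = 0.00149) and 1.36 ± 0.47 (SE, adjusted p = 0.0236). The second of these had 2.25 in batch 1 alone and 0.44 in batch 2 alone. Of the list drawn up for the mTOR pathway, 4 of 12 probe sets rose and 2 fell at days 10–14. Both probe sets of the complex subunit gene *mlst8* rose, with 0.82 ± 0.21 (SE, adjusted p = 0.00315) and 1.15 ± 0.29 (SE, adjusted p = 0.00235). They had 0.94 and 1.96 in batch 1 alone, against 0.41 and 0.33 in batch 2 alone. The other rises were *larp1b* (1.06, adjusted p = 0.0163) and *akt1s1* (0.94, adjusted p = 0.00347). For *akt1s1* batch 1 alone gave 1.51 and batch 2 alone 0.26. The falls were *rps6ka1* (-1.94, adjusted p = 2.68e-07) and the S6 kinase gene *rps6kb1b*, with -0.60 ± 0.23 (SE, adjusted p = 0.0388). At day 4 the mTOR inhibitor gene *deptor* fell, with -1.99 ± 0.47 (SE, adjusted p = 0.0176). Of the partners of initiation factors 9 of 22 rose and 5 fell at days 10–14, and 1 rose at day 4. Here *pdcd4b*, an inhibitor of the eIF4A helicase, fell by 2.91 ± 0.27 (SE, adjusted p = 6.6e-09) on the log2 scale, while its paralog *pdcd4a* rose on 4 probe sets (0.51 to 1.45). Also lower were *mknk1* (-1.22, adjusted p = 0.00185), *mknk2a* (-0.91, adjusted p = 0.000532) and *pabpc1l* (-0.87, adjusted p = 0.0235). For *pabpc1l* batch 1 alone gave -1.55 and batch 2 alone -0.16. The last fall was a probe set of *mknk2b* (-0.82, adjusted p = 0.0245), whose other probe sets were not called. The called one had -0.11 in batch 1 alone and -1.43 in batch 2 alone. The poly(A)-binding protein gene *pabpc4* rose by 2.17 ± 0.34 (SE, adjusted p = 1.66e-05). The re-initiation factor gene *mcts1* rose at days 10–14 by 0.98 ± 0.19 (SE, adjusted p = 0.000260) and at day 4 by 0.65 ± 0.19 (SE, adjusted p = 0.0455). Of the elongation factors 2 of 13 rose and 3 fell at days 10–14, and 1 rose at day 4. The falls were *eef2a.1*, *eef1a1a* and *eef1a1b* with -2.11 ± 0.36 (SE, adjusted p = 3.76e-05), -1.30 ± 0.34 (SE, adjusted p = 0.00342) and -1.17 ± 0.26 (SE, adjusted p = 0.000956). Their mean signals were only 294, 261 and 64.6. The far brighter *eef1a1l1* (mean signal 24776.5) and *eef2b* (19909) were not called, with -0.12 (adjusted p = 0.470) and 0.15 (adjusted p = 0.329). The rises were *eef1e1* (0.81, adjusted p = 0.00582) and a probe set of *eef2l2* (1.42, adjusted p = 0.00632). That of *eef2l2* had 3.06 in batch 1 alone and 0.003 in batch 2 alone, and *eef1e1* had 0.25 and 1.13. Of termination and recycling 2 of 8 rose at days 10–14, both of the release factor gene *gspt1* (0.73 and 1.20), and *abce1*, which splits ribosomes after a round of translation, rose at day 4 by 0.82 ± 0.20 (SE, adjusted p = 0.0193). The *gspt1* probe set with 0.73 had 1.17 in batch 1 alone and 0.25 in batch 2 alone.

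Markers of other cells moved with the same contrasts. Their counts stand beside the same shares of all probe sets, 21.8% higher and 17.1% lower at days 10–14 and 2.10% and 2.36% at day 4. At day 4 the summed signal of the muscle list was 1432 to 17918, against 2984 to 42614 on the other days, and 3 of its 15 probe sets, of *ckma* and *mylpfa*, fell. That of the fibroblast and connective tissue list was 10213 to 34526 at day 4, against 16568 to 100150.0, and 4 of its 8 probe sets, of *col1a1a* and *col1a2*, fell. That of the leukocyte list was 4686 to 19306, against 1154 to 46208, and limma called 0 of 11 at day 4 (1 higher and 1 lower at an unadjusted p under 0.05). In the late comparison, 6 of 15 probe sets of the muscle list rose and 1 fell, and 4 of 8 of the fibroblast list rose. In the same comparison 3 of 4 of the erythrocyte list, 3 of 6 of the epidermis list and the single endothelial probe set fell. What part the cell mixture had in the changes of the initiation factors was not tested.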

How the data were processed

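RNA of zMNCs was measured on 32 Affymetrix zebrafish arrays. Per the labels, the authors made a linear signal intensity per probe set with MAS5 (version: not given in the sources used here) and scaled it to a trimmed mean (2% of each tail), which was 500 on every array. The listed target intensity was 500 for batch 1 and 1500 for batch 2, so the listed value for batch 2 differs from its trimmed mean. All 32 columns matched a sample. The 115 control probe sets were left out, and 15502 of 15617 were analysed on 31 arrays.

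Signals were quantile normalized and taken to log2 after adding an offset of 32, so the change of a dim probe set is understated. limma 3.58.1 (R 4.3.3, lmFit and eBayes) was fitted with 6 days as levels and the hybridization run (5 runs, run 5 being batch 1) as a covariate, with 21 residual degrees of freedom. In batch 2, run 2 held only days 0, 1 and 4, and run 4 only days 7 and 14. Neither of these runs compares late with early arrays directly, so run and day were partly confounded. Tests were two-sided with Benjamini-Hochberg adjustment over all probe sets. The fit was tested on simulated data. The array annotation gave the symbols, of which 10711 were brought up to date by Entrez gene ID. It gives 1 symbol for 10795 probe sets, several for 135 and none for 4572.

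The members and lists were chosen with earlier results of these data known. Values were given for up to 3 members per complex with the smallest p over days, for members called at days 10–14 or day 4 with 1 sign in both batches, for all eIF2B subunits, and for other probe sets of those genes (38 probe sets, 29 genes). A few others were named after their values were seen.

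The alternatives were the authors' scaling alone, offsets of 16 and 64, a signal filter of 100, the 24 arrays labelled good, each batch alone, batch in place of run, coarser day levels, a replicate block and each array left out. Precision is limited by the number of arrays. The study's RMA values were not used here.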

Additional observations from a re-analysis of the deposited data

Results flagged for a closer look

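On the 4 day 4 arrays of batch 2, *eif2b5* had a signal of 717 in replicate D, far from 1126 to 1213 in the other 3, with a gap of 0.858 of the whole range. This was 1 of 76 sets of 4 to 10 arrays examined over the named probe sets, and chance alone marks about a share of 0.05 of such sets. Replicate D was labelled poor, as were 2 of the other 3.

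The late change, days 10–14 against days 0–1, differed between batch 1 and batch 2 for 6 probe sets by limma's test of the difference. Batch 1 minus batch 2 was 2.17 on the log2 scale for *eif4ebp3l* (adjusted p = 0.0409), 2.11 for *eif1axa* (adjusted p = 0.00281), 1.68 for *eif4a2* (adjusted p = 0.00235), 1.42 for *eif2b4* (adjusted p = 0.0264), 1.39 for *eif3hb* (adjusted p = 0.0332) and 1.19 for the dimmest *eif1axb* probe set (adjusted p = 0.0294). For *eif4a2* the 9 late and 9 early arrays were separated in each batch, in opposite directions.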

How the results depend on the processing

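The count at days 10–14 was 26 (19 higher, 7 lower), 15 in 10 arrays of batch 1 (without day 14 replicate B), 17 in all 11 of batch 1, 12 in batch 2 alone and 15 with the replicate block in place of the run. The day 4 count of 11 was 7 with the authors' scaling alone, 3 with the good arrays, 0 and 0 in the 10 and 11 arrays of batch 1, 5 in batch 2, 17 with batch in place of run and 4 with coarser levels. Day 4 against day 1 (13) gave 8 with the good arrays, 6 and 8 in batch 1 and 4 in batch 2. Day 7 against day 4 (1) gave 0 with the authors' scaling alone and in both settings of batch 1, 2 with an offset of 64, with the filter and with the replicate block, and 3 with batch in place of run. Day 1 against day 0 gave 1 in the 11 arrays of batch 1 and day 10 against day 7 gave 4 in batch 2. The F test over days (22) gave 4 and 7 in batch 1, and the batch difference (6) gave 2 with the good arrays. With fewer arrays and degrees of freedom in the single batches and the good arrays, the precision was lower. The cause of the other differences was not tested.

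Leaving out 1 array at a time, the count was 18 to 27 at days 10–14, 2 to 19 at day 4, 11 to 15 for day 4 against day 1, 0 to 3 for day 7 against day 4, 0 to 0 for day 1 against day 0, day 10 against day 7 and day 14 against day 10, 19 to 26 for the F test and 2 to 8 for the batch difference. Of the single probe sets called at days 10–14, 1 reversed, *eif1axa* in batch 2 alone (-0.15, adjusted p = 0.725). The split at days 10–14 was 21 higher and 6 lower with the authors' scaling alone, which moved the median of all probe sets to -0.11 there and to 0.18 at day 4.

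The replicate letters were shared between days, and whether they paired the arrays was not settled. Deviations from the day means of same-lettered arrays correlated at -0.34 to 0.07 in batch 1 (0 of 20 pairs over 0.1) and at -0.68 to 0.61 in batch 2 (11 of 41 over 0.1). Batch 1 cannot decide this, because the deviations of 2 arrays from their day mean mirror each other. In batch 2, arrays with different letters correlated at -0.66 to 0.68 (26 of 123 over 0.1). With the replicate block the late count of 15 had 11 higher and 4 lower, 14 of them among the 26 (*eif1axa*, *eif2b5*, *eif3eb*, *eif3g*, *eif3m*, *eif4e1b*, *eif4e1c*, the dimmer *eif4g2a*, both *eif5b* and the other 2 *eif1axb* probe sets than the brightest were not), the day 4 count was 12, day 4 against day 1 gave 13, the F test 20 and the batch difference 5.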
